A study of Mus musculus with 4 samples.

Results

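The genes described here encode 10 enzymes that carry glucose through glycolysis and decide the fate of pyruvate: the hexokinases Hk1 and Hk2, the phosphofructokinases Pfkl and Pfkp, the aldolase Aldoa, the triose phosphate isomerase Tpi1, the phosphoglycerate kinase Pgk1, the enolase Eno1, the lactate dehydrogenase Ldha and the pyruvate dehydrogenase kinase Pdk1. They were taken by gene symbol, and every probe set annotated to a member alone was used. Of the 10 genes, 9 had such a probe set and Eno1 is not analysed here. The 9 genes were read by 25 probe sets, out of 45037 probe sets and 18193 named genes on the array, and all 25 passed the filter on dim probe sets, a mean log2 value of at least 5.42 over the arrays, as did 22519 probe sets and 11270 named genes in all.

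Expression was measured on 4 Affymetrix arrays of keratinocytes that were sorted from the interfollicular epidermis of the tail (CD-1 background), with 2 arrays for each of 2 Cre lines. InvCREER mice carry a tamoxifen-inducible Cre recombinase driven by the promoter of involucrin, a gene of differentiating keratinocytes, and received 10 ug of tamoxifen; K14CREER mice carry the same kind of Cre driven by the promoter of the basal keratin 14 and received 1 ug. Both lines hold the Rosa YFP reporter that Cre switches on, and in both the living YFP-positive cells with high alpha6 integrin and no CD34 at their surface were collected, at a time that the treatment protocol gives as 4 days and the titles as 3.5 days after induction. The comparison asks how basal cells marked by InvCREER differ from those marked by K14CREER. The promoter and the amount of tamoxifen changed together and cannot be told apart. Since no label gives the number of animals behind an array, the spread that p-values rest on may be technical in part or, in K14CREER, in whole. The InvCREER arrays differed in Xist (12.56 and 8.26) and Y-linked Uty (4.70 and 7.85), so that their spread includes a difference in sex make-up. The K14CREER arrays read 7.25 and 5.44 for Xist and 7.19 and 7.48 for Uty, and whether their sex make-up differs was not tested. The basal markers Krt5 and Krt14 were at 13.21 to 13.85 on the InvCREER arrays and 13.80 to 14.17 on the K14CREER arrays, so that both lines expressed them. All 8 basal markers had lower means in InvCREER, among them Krt15 and Lamb3. Their log2 differences, InvCREER minus K14CREER, were -1.38 and -1.77 (limma adjusted p = 0.021 and 0.044). Of 8 spinous markers, 7 were higher in InvCREER at a limma adjusted p under 0.05, against 0.958% of tested genes.

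Glycolysis splits each glucose into pyruvate in the cytoplasm and yields ATP without oxygen. Hexokinase and phosphofructokinase are regulated steps, while aldolase, triose phosphate isomerase, phosphoglycerate kinase and enolase work near equilibrium. Lactate dehydrogenase turns pyruvate into lactate and so restores NAD. Pyruvate dehydrogenase kinase keeps pyruvate from being oxidised by switching off pyruvate dehydrogenase. The epidermis has no blood vessels of its own and is known for a high output of lactate, and many of these genes are textbook targets of the hypoxia-inducible factor HIF-1 and of Myc.

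None of the glycolytic enzyme genes passed the test in basal cells marked by InvCREER against those marked by K14CREER. Limma called 0 of the 9 genes at a Benjamini-Hochberg adjusted p under 0.05, against 1.33% of the 11270 tested genes, each gene read by its brightest probe set. At an unadjusted p under 0.05 the count was 0 of 9, against 16.1% of tested genes, and 0 of 9 had both arrays of a line at least 1.5-fold beyond both of the other, against 7.53%. No line mean was 1.5-fold or more from the other, against 16.2%. The mean was higher in InvCREER for 4 genes (Hk2, Pfkl, Aldoa and Pdk1) and lower for 5 (Hk1, Pfkp, Tpi1, Pgk1 and Ldha). The differences, InvCREER minus K14CREER in log2 units throughout, ran from -0.31 for Pgk1 to 0.57 for Hk2, with a median of -0.22, against a median of -0.01 over the tested genes. Without InvCREER 1 that median was 0.048, without InvCREER 2 it was -0.073 and without K14CREER 1 it was -0.089. The median absolute difference of the 9 genes was 0.25, beside a median gap between the arrays of a line of 0.24 in InvCREER and 0.33 in K14CREER.

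**Figure D1:**
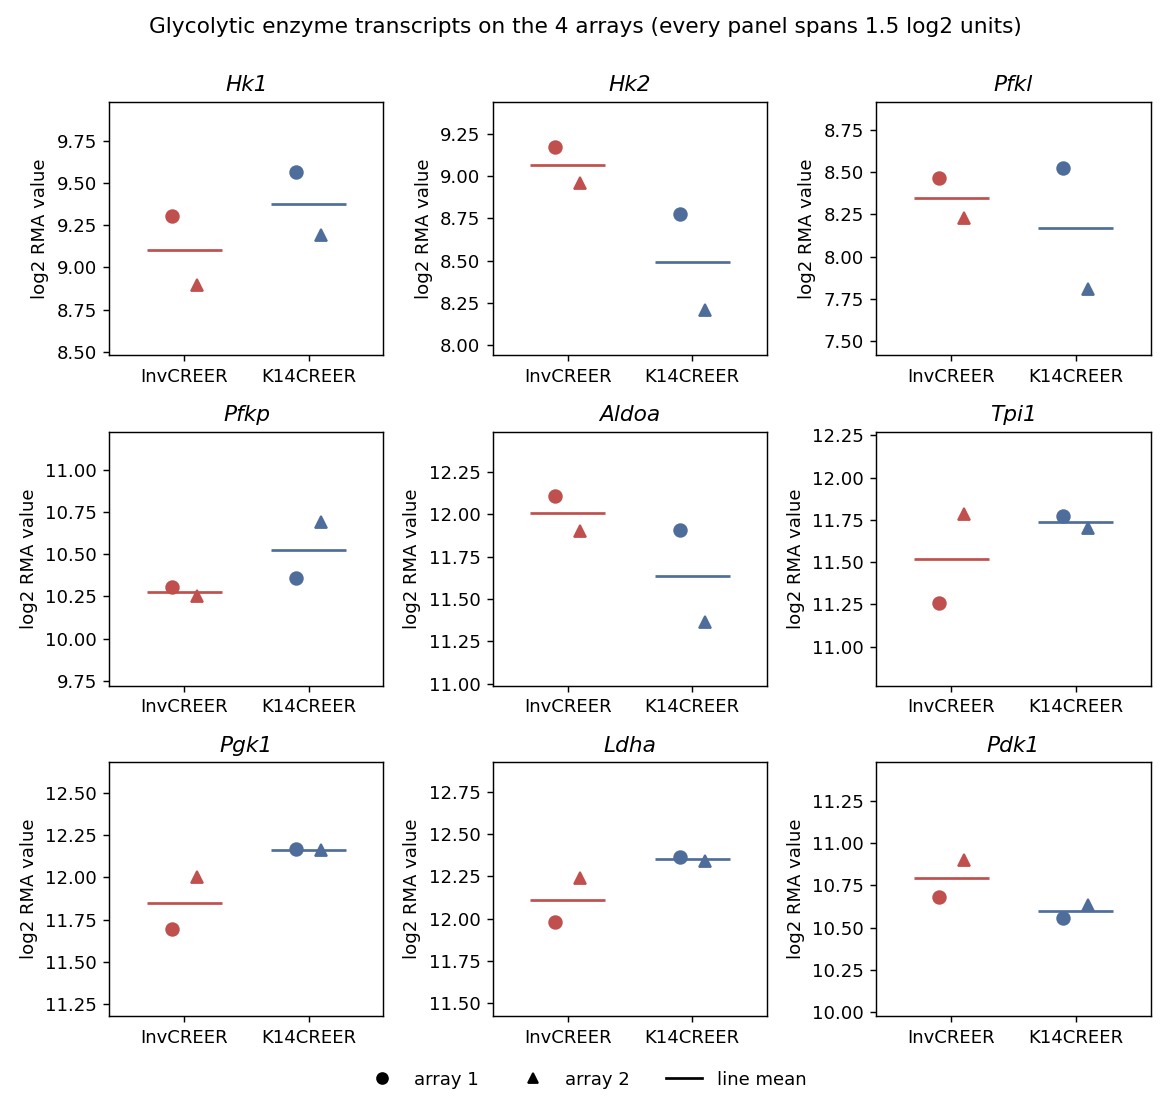
Log2 RMA values of the brightest probe set of 9 glycolytic enzyme genes on 2 InvCREER arrays (red, left) and 2 K14CREER arrays (blue, right); circles are array 1, triangles array 2 and bars the line means, and every panel spans 1.5 log2 units. The lines overlap for Hk1, Pfkl, Aldoa and Tpi1, and no mean differs by more than the 0.57 of Hk2.

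The arrays did not stand equally. InvCREER 1 had Xist at 12.56, against 8.26 on InvCREER 2 and 7.25 and 5.44 on the K14CREER arrays, and Y-linked Uty at 4.70, against 7.19 to 7.85 on the others. It also had the highest sebaceous gland markers: the mean of 11 was 10.03 on InvCREER 1 and 8.61 on InvCREER 2, against 7.51 and 7.11 in K14CREER, with 10 of 11 higher in InvCREER. The 10 Langerhans cell and myeloid markers were highest there too (mean 7.35 on InvCREER 1 and 6.03 on InvCREER 2, against 5.49 and 5.24 in K14CREER), with 10 of 10 higher in InvCREER. Of these, 3 were below the filter and 0 were called. Of 10 dermal fibroblast markers, 8 were lower (mean 5.56 and 5.48 in InvCREER, against 6.44 and 5.91 in K14CREER) and 6 were below the filter. The tested ones were Sparc at -2.36 (limma adjusted p = 0.00612), Dcn at -1.87, Col1a2 at -0.33 and Fbln1 at 0.003. The 8 basal keratinocyte markers all had lower means in InvCREER (11.72 and 11.55, against 12.60 and 12.43), the 8 spinous markers all had higher ones (11.65 and 11.67, against 9.86 and 9.85), and the 9 proliferation markers all had lower ones (9.05 and 9.38, against 10.12 and 10.59). Skeletal muscle markers, of a tissue rich in glycolytic enzymes, had 6 of 7 genes below the filter and a mean of 4.78 to 4.90 on every array. The part of any of these in the values of the glycolytic enzymes was not tested. In bulk samples fewer cells of a type and less RNA per cell cannot be told apart.

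The hexokinases, which trap glucose in the cell, had means on opposite sides. Hk2, the inducible hexokinase, read 9.17 and 8.96 on the InvCREER arrays, against 8.78 and 8.21 on the K14CREER arrays. Hk1, the widely expressed form, read 9.30 and 8.90 in InvCREER, against 9.57 and 9.19 in K14CREER. Hk2 was higher on both InvCREER arrays with no overlap, while the Hk1 values of the lines overlapped. The Hk2 difference was 0.57 (SE 0.26, limma adjusted p = 0.414), with a 95% confidence interval of 0.959-fold to 2.31-fold, and that of Hk1 was -0.28 (SE 0.24, limma adjusted p = 0.742), with an interval of 0.549-fold to 1.24-fold. The Hk2 difference ranged from 0.29 without K14CREER 2 to 0.86 without K14CREER 1, and that of Hk1 from -0.48 without InvCREER 1 to -0.07 without InvCREER 2. The dimmer Hk1 probe set, with values close to the filter value, was also lower in InvCREER, at -0.44.

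Taken within each array, Hk2 minus Hk1 was -0.13 and 0.06 in InvCREER, against -0.79 and -0.98 in K14CREER. The ratio was thus higher on both InvCREER arrays, by 0.85, with an SD of 0.14 in each line (n = 2). An exact 2-sided permutation test gave p = 0.333, the smallest that 2 against 2 arrays allow, and 0.667 after adjustment over the 2 ratios computed. Left-out arrays moved the difference of this ratio between 0.75 and 0.95. With the dimmer Hk1 probe set the ratio was 3.81 and 3.41 in InvCREER, against 2.75 and 2.45 in K14CREER, a difference of 1.01. That Hk1 probe set read 5.36 and 5.55 in InvCREER, against 6.02 and 5.76 in K14CREER, close to the filter value of 5.42. The Hk2 values were the same in both ratios, so that they are not independent. Levels of different probe sets are not on a common scale, so that only the change of the ratio between lines can be read, not which hexokinase is the more abundant.

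The phosphofructokinases, which catalyse the main control step of glycolysis, showed no such separation. Pfkl, the liver-type subunit, read 8.46 and 8.23 in InvCREER, against 8.52 and 7.81 in K14CREER. The K14CREER arrays lay on both sides of the InvCREER arrays, and the difference was 0.18 (SE 0.30, limma adjusted p = 0.890; interval 0.687-fold to 1.86-fold). Without K14CREER 2 it turned to -0.18. Pfkp, the platelet-type subunit, read 10.30 and 10.25 in InvCREER, against 10.36 and 10.69 in K14CREER. Both InvCREER arrays were lower by a narrow margin, and the difference was -0.25 (SE 0.18, limma adjusted p = 0.673; interval 0.623-fold to 1.14-fold), or -0.08 without K14CREER 2. The 2 dimmer Pfkp probe sets disagreed in sign, at -0.51 and 0.18. Pfkp minus Pfkl within arrays was 1.84 and 2.03 in InvCREER, against 1.83 and 2.88 in K14CREER, and the lines overlapped (exact permutation p = 1.00, 2-sided). That difference of -0.42 became 0.10 without K14CREER 2.

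Aldoa, the aldolase of muscle and most other tissues, read 12.11 and 11.90 in InvCREER, against 11.91 and 11.37 in K14CREER. InvCREER 1 was the highest and K14CREER 2 the lowest, with InvCREER 2 and K14CREER 1 nearly equal. The difference was 0.37 (SE 0.20, limma adjusted p = 0.507), with an interval of 0.927-fold to 1.80-fold, and it was 0.10 without K14CREER 2 and 0.64 without K14CREER 1. All 5 Aldoa probe sets had higher means in InvCREER, by 0.29 to 0.49, and 1 of them did not overlap between the lines. These 5 read the same RNA and are not independent, and each carries the suffix x_at of probe sets whose probes can also match other transcripts.

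Both genes of the triose steps had lower means in InvCREER. Tpi1, which interconverts the triose phosphates that aldolase makes, read 11.26 and 11.78 in InvCREER, against 11.77 and 11.70 in K14CREER. InvCREER 1 was the low array and the other 3 lay together. The difference of -0.22 (SE 0.19, limma adjusted p = 0.742; interval 0.626-fold to 1.18-fold) became 0.048 without InvCREER 1. Pgk1, whose reaction yields the first ATP of the pathway, read 11.69 and 12.00 in InvCREER, against 12.17 and 12.16 in K14CREER. Both InvCREER arrays lay lower, and the difference was -0.31 (SE 0.14, limma adjusted p = 0.396; interval 0.638-fold to 1.01-fold).

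All 3 Pgk1 probe sets had lower means in InvCREER with no overlap, the farthest being 1439435_x_at at 9.04 and 9.45 in InvCREER, against 9.96 and 10.09 in K14CREER. Its difference of -0.78 (SE 0.21) had an unadjusted p of 0.00987 and an adjusted p of 0.168 by limma. The 3 probe sets read the same RNA and are not independent, and 1438640_x_at and 1439435_x_at carry the suffix x_at. Of all tested probe sets, 42.0% did not overlap between the lines. Pgk1 lies on the X chromosome and was lowest on InvCREER 1, the array with the highest Xist. Without that array the difference of its brightest probe set was -0.16. The part of the X chromosome in the difference was not tested.

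At the pyruvate end, Ldha, the main subunit of lactate dehydrogenase in glycolytic tissues, read 11.98 and 12.24 in InvCREER, against 12.37 and 12.34 in K14CREER. Both InvCREER arrays were lower, InvCREER 2 by a small margin, and the difference was -0.24 (SE 0.13, limma adjusted p = 0.485; interval 0.685-fold to 1.04-fold), or -0.11 without InvCREER 1. Pdk1 read 10.68 and 10.90 in InvCREER, against 10.56 and 10.64 in K14CREER. Both InvCREER arrays were higher, by 0.20 on average (SE 0.16, limma adjusted p = 0.716; interval 0.877-fold to 1.49-fold). Its 4 probe sets did not share a sign: 3 had higher means in InvCREER and 1435836_at had a lower one, at -0.16. The dimmest of them, 1434974_at, read 6.60 and 5.86 in InvCREER, against 5.43 and 5.33 in K14CREER, close to the filter value, with a difference of 0.85 (SE 0.30, unadjusted p = 0.0281, limma adjusted p = 0.275). It was highest on InvCREER 1.

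**Figure D2:**
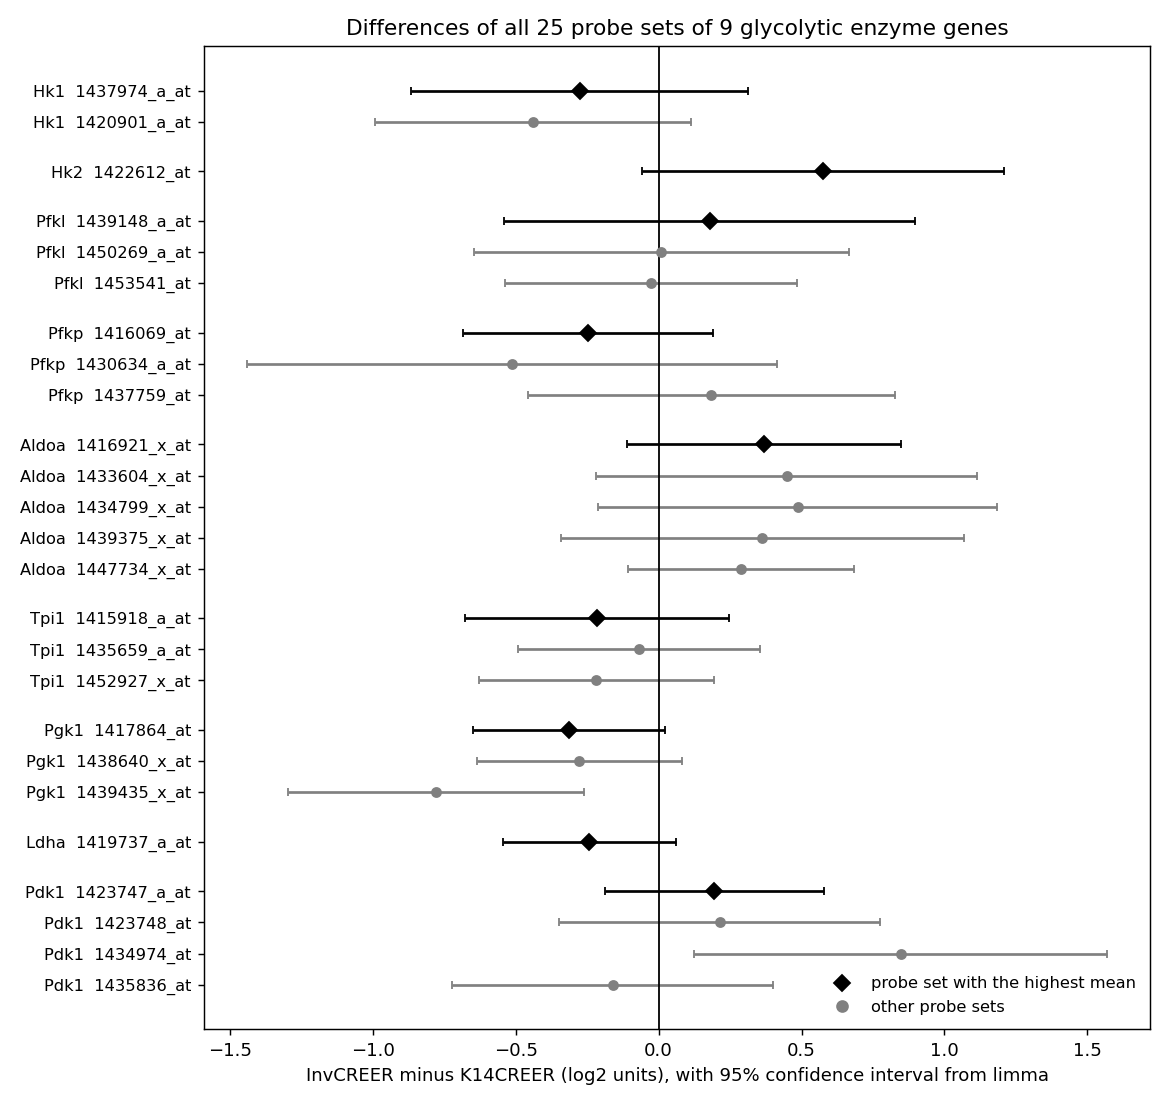
Difference between InvCREER and K14CREER in log2 units, with the 95% confidence interval from limma, for all 25 probe sets of 9 glycolytic enzyme genes; black diamonds mark the brightest probe set of a gene and grey circles its others. Intervals lie off 0 for 2 probe sets, 1439435_x_at of Pgk1 and 1434974_at of Pdk1, neither of which had an adjusted p under 0.05.

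Over the 25 probe sets, limma called 0 at an adjusted p under 0.05, against 0.959% of the 22519 tested. The 2 with an unadjusted p under 0.05 were those of Pgk1 and Pdk1 named above, against 13.9% of tested probe sets. Groups did not overlap for 10 of the 25, against 42.0%, and for 5 of the 9 genes on their brightest probe set, against 45.3% of tested genes. Of these 5 genes, Hk2 and Pdk1 were higher in InvCREER, against 21.3% of tested genes, and Pfkp, Pgk1 and Ldha lower, against 24.1%. The shares of the probe sets lay below the background. Those of the genes lay near or above it, and 9 genes are too few to tell them from it. For 2 of the 9 genes, Hk2 and Pgk1, the difference between the lines was larger, narrowly in both, than the gap between the arrays within either line, against 33.7% of tested genes.

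The arrays of a line differed in both directions. Hk1, Hk2, Pfkl and Aldoa were higher on array 1 than on array 2 in both lines, by 0.41, 0.21, 0.24 and 0.21 in InvCREER and by 0.38, 0.57, 0.71 and 0.54 in K14CREER. Pdk1 was lower on array 1 in both lines, by values of -0.22 in InvCREER and -0.079 in K14CREER. The other 4 genes had gaps of opposite sign in the lines, with Tpi1 at -0.53 in InvCREER and 0.069 in K14CREER. K14CREER 2 was the lowest array for Hk2, Pfkl and Aldoa, and InvCREER 1 the lowest for Tpi1, Pgk1 and Ldha. Between arrays of the same number InvCREER lay on the same side in both pairs for 7 of the 9 genes, all but Pfkl and Tpi1. Genes without overlap, 5 of these 9 and 45.3% of tested genes, meet this by definition. The share over all tested genes was not computed and the labels do not pair the numbers, so that nothing is drawn from this count.

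**Figure D3:**
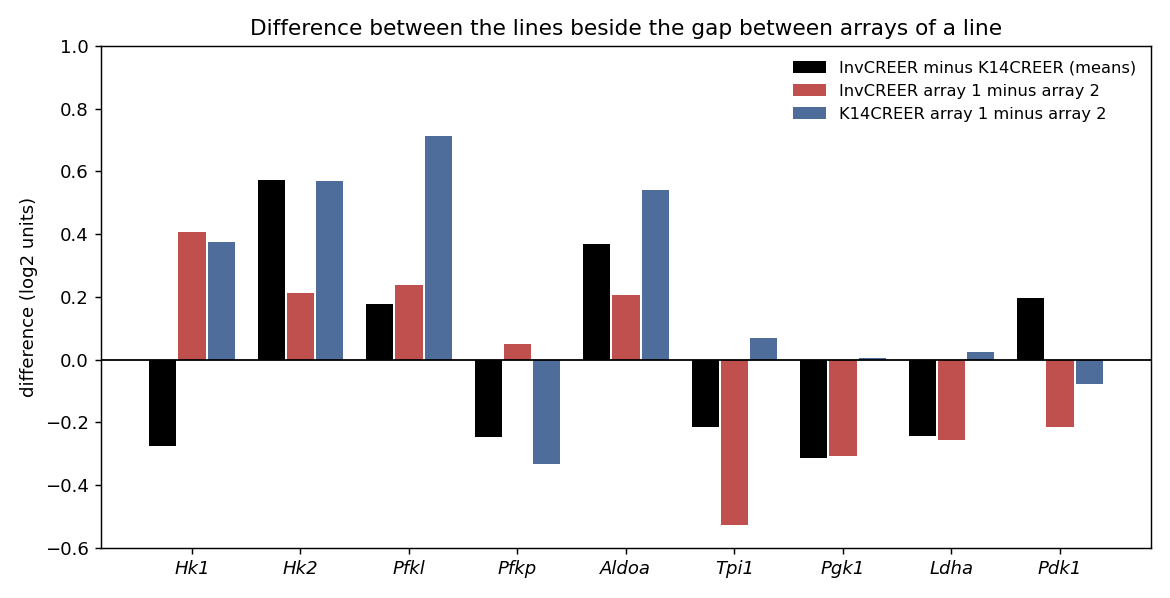
Difference between the line means (black) beside the difference between array 1 and array 2 in InvCREER (red) and in K14CREER (blue), in log2 units, for 9 glycolytic enzyme genes. The black bar exceeds both coloured bars in size narrowly for Hk2 and Pgk1, while the other 7 genes have a larger gap within a line, up to 0.71 for Pfkl in K14CREER.

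Sequence before the transcription start is shown for the 3 members whose window holds the letters ACGTG, the form of the HIF-1 motif that also lies in the E-box CACGTG of Myc and related factors, because their means lay on opposite sides: Hk2 above 0, Pgk1 and Ldha below. Each window is the 250 bases before the most upstream start that RefSeq lists on GRCm38.p6, read along the gene's strand, with every match to ACGTG or GCGTG on either strand in capitals.
Hk2, chr6:82774455-82774704, minus strand: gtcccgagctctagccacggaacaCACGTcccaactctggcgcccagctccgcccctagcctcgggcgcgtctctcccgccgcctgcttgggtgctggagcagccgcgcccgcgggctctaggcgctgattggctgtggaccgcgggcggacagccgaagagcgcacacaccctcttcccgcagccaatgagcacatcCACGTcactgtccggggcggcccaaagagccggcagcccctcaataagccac
Pgk1, chrX:106186850-106187099, plus strand: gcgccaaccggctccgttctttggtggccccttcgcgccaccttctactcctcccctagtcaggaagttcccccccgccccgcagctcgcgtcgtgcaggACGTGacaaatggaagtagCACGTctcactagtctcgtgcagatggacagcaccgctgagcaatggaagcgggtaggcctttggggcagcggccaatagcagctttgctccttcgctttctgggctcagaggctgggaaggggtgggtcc
Ldha, chr7:46845554-46845803, plus strand: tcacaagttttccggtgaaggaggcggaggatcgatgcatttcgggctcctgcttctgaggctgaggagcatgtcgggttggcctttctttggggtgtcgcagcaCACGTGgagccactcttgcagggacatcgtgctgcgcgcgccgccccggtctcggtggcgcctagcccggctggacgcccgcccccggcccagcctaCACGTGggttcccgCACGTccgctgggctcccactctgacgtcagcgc
The capitals mark 2 places in Hk2, 2 in Pgk1 and 3 in Ldha, of which 2 are the full E-box CACGTG, where ACGTG matches on both strands. Over 27025 genes with such a window, 16.5% held ACGTG, 28.3% GCGTG, 38.6% either and 6.04% CACGTG. Among the 10 members, Eno1 included, 3 held ACGTG, 4 held GCGTG (Pfkl, Pfkp, Eno1 and Pdk1) and Hk1, Aldoa and Tpi1 held neither in this window. Hk1, Aldoa, Eno1, Ldha and Pdk1 have further starts listed that were not scanned. A match describes the letters alone, and no match says nothing of the factor.

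Genes that feed or drain the pathway were read from lists of connected pathways, with the brightest probe set per gene. Limma called 0 of their 108 tested genes at an adjusted p under 0.05, against 1.33% of all tested genes. That count depended on the fit. It was 5 under a stricter filter on dim probe sets, 6 with 1 probe set per gene and 6 with the replicate number as a block. Over the whole array, 216 of 22519 probe sets were called in the main fit. In the same order, these calls rose to 405 among fewer, brighter probe sets, 551 among 11270 genes and 1390 among 22519 probe sets. At an unadjusted p under 0.05, 8 pathway genes were higher and 7 lower, against 7.58% and 8.54% of tested genes. For 8, both arrays of a line were at least 1.5-fold beyond both of the other, against 7.53% of tested genes. Among 12 tested glycolytic enzymes outside the members, 1 was higher at an unadjusted p under 0.05 and 0 lower, with a median difference of -0.05. That gene, the brain-type aldolase Aldoc, read 9.25 and 9.69 in InvCREER, against 7.75 and 8.37 in K14CREER (difference 1.41, SE 0.29, limma adjusted p = 0.0922). Ldhb, the heart-type lactate dehydrogenase subunit, was high on InvCREER 1 alone, at 9.63, with 8.40 on InvCREER 2 and 8.63 and 8.24 in K14CREER (limma adjusted p = 0.651). Adpgk, an ADP-dependent glucokinase, was at 0.60 (limma adjusted p = 0.399).

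For glucose entry and lactate transport, 9 transporter and chaperone genes were tested, of which 3 were lower and 1 higher at an unadjusted p under 0.05, with a median of -0.37. Slc2a1, which encodes the main glucose transporter of keratinocytes, read 11.50 and 11.01 in InvCREER, against 12.55 and 12.34 in K14CREER on its brightest probe set, with a difference of -1.19 (SE 0.19, limma adjusted p = 0.0528). Its probe set 1426599_a_at read 10.98 and 10.60 in InvCREER, against 12.24 and 12.13 in K14CREER, and fell by 1.40 (SE 0.17, limma adjusted p = 0.0251). Slc2a1 itself was called at the looser threshold of 0.1, under the stricter filter and with the replicate number as a block. It was also called with 1 probe set per gene and with the mean of a gene's probe sets. The other limma fits that keep both arrays of each line did not call it. A fit with an array left out holds 1 array in a line, so that only its difference is given. The Slc2a1 difference was -1.43 without InvCREER 1, -0.94 without InvCREER 2, -1.08 without K14CREER 1 and -1.29 without K14CREER 2. None of the 3 Slc2a1 probe sets overlapped between the lines. Slc2a3, another glucose transporter, was at -1.09 (limma adjusted p = 0.114) and Emb, a chaperone of lactate transporters, at 1.78 (limma adjusted p = 0.187). Emb was highest on InvCREER 1, at 9.59, with 8.00 on InvCREER 2 and 7.27 and 6.77 in K14CREER.

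Among 22 tested hypoxia response genes outside glycolysis, 1 was lower and 0 higher at an unadjusted p under 0.05, with a median of -0.06. P4ha1, a collagen prolyl hydroxylase, read 8.02 and 8.28 in InvCREER, against 9.50 and 9.29 in K14CREER (difference -1.25, SE 0.22, limma adjusted p = 0.0624). Bnip3 was at -0.62 and P4ha2 at -0.51 (limma adjusted p = 0.410 and 0.454). Txnip, a glucose-induced inhibitor of glucose uptake, was at -1.17 (limma adjusted p = 0.0835), the lowest of 7 tested regulators, beside Esrra at 0.42 and Mycn at -0.30. Around pyruvate dehydrogenase 11 genes were tested, 0 had an unadjusted p under 0.05, and the median was 0.02. The values farthest from 0 were -0.35 for Pdp1, -0.32 for Pdpr and 0.26 for Pdp2, phosphatase subunits of the complex. In the control of fructose bisphosphates, 1 of 5 tested genes, Fbp2, was higher at an unadjusted p under 0.05 (0.72, limma adjusted p = 0.247), with Tigar at 0.36 and Pfkfb4 at -0.27.

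**Figure D4:**
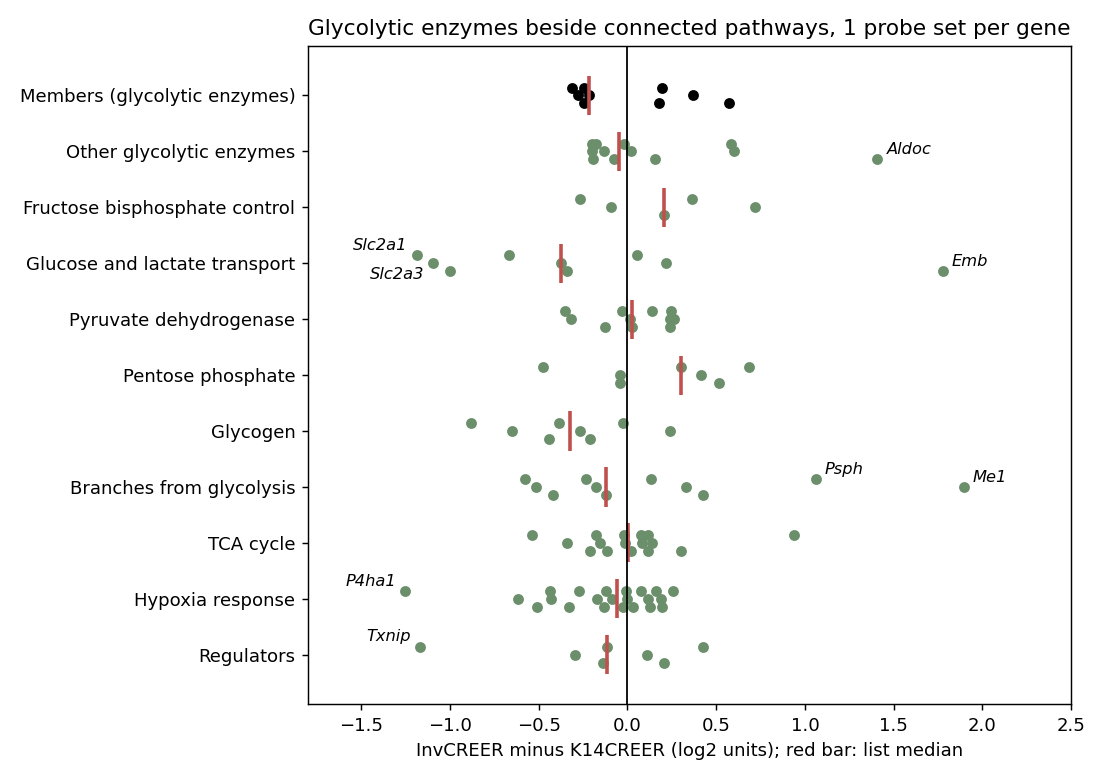
Difference between InvCREER and K14CREER in log2 units for each tested gene, 1 probe set per gene, in the glycolytic enzyme members (black, top) and in 10 lists of connected pathways (green); red bars are list medians and genes at 1 log2 unit or more from 0 are named. The members lie between -0.31 and 0.57, while Slc2a1, Slc2a3, P4ha1 and Txnip lie below -1 and Aldoc, Psph, Emb and Me1 above 1.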

How the data were processed

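Each array took 100 ng of RNA, amplified by the authors from the 3' end (per the labels' protocols). Per the submitters' processing notes, Expression Console 1.1 was used; the values are RMA summaries. As deposited, values are on the log2 scale (array medians 5.40 to 5.44, highest value 14.22). Since RMA equalises the arrays' distributions, shifts of all genes together are lost. The number of arrays limits the precision. Of 45101 probe sets, 64 controls were set aside. Genes were named from the platform annotation through RefSeq gene numbers: 34945 probe sets had 1 symbol, 932 several and 9160 were unnamed here; 1 with several symbols, Hk1 among them, was not used. Limma 3.58.1 (R 4.3.3; lmFit, eBayes with a trend, 2-sided, no block) was fitted to the 22519 tested probe sets. The brightest probe set (highest mean over the arrays) stood for a gene. Named genes were all members and, per pathway list, called genes or the 3 farthest from 0. Tested on simulated data, the fit recovered the known differences on average, which does not say how often a real change is called. In those data, drawn once with independent normal errors, a larger share of its calls was false than the threshold names. This may bear on calls reported here, whose own share of false calls was not tested. Alternatives covered filter, variance model, weights, scaling, block, left-out arrays, threshold, unit and probe set kind. Members and lists were chosen with earlier results of these data known.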

Additional observations from a re-analysis of the deposited data

How the results depend on the processing

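No glycolytic enzyme gene was called under any of the 17 alternatives, of which 1 was a fold rule in place of limma and 1, without probe sets suffixed s_at, x_at or a_at, held only 5 of the 9 genes (Hk2, Pfkl, Pfkp, Pgk1 and Pdk1). Differences kept their sign in the 15 alternatives computed for Hk1, Aldoa and Ldha and the 16 for Hk2, Pfkp, Pgk1 and Pdk1. Most of these could not change a sign. The difference stayed the same under the other filters, variance models, weights, block, threshold and 1 probe set per gene. Only left-out arrays, scaling, the mean of a gene's probe sets and the probe set kind could move it. Tpi1 ran from -0.48 to 0.048 and Pfkl from -0.18 to 0.54 over left-out arrays, and Pfkl was at -0.025 without the suffixed probe sets. The median over the 9 members was -0.18 to 0.048 over left-out arrays, and that over the 5 genes left without those probe sets was -0.025. Probe sets called over the whole array numbered 216 and pathway genes called 0. In the same order, the counts were 405 and 5 under the stricter filter, which tested fewer probe sets, and 692 and 5 at an adjusted p under 0.1. By the 1.5-fold rule they were 1373 and 8, and 849 of 11270 genes passed that rule. Called genes, out of 11270 tested, numbered 551 with 1 probe set per gene and 450 with the mean of a gene's probe sets. Pathway genes among them numbered 6 and 5. Without the variance trend 122 probe sets were called over the array. Over left-out arrays the counts were 82 (without K14CREER 1) to 981 (without InvCREER 2) and 0 to 8. With the replicate number as a block they were 1390 and 6. The deviations of same-numbered arrays from their line means correlated at r = 0.38 across probe sets, but the labels do not say that a number marks a shared animal or day, and the block called no member. Slc2a1 was called with the replicate block (limma adjusted p = 0.00741) and at the threshold of 0.1. The stricter filter, 1 probe set per gene and the mean of a gene's probe sets also called it. The other limma fits that keep both arrays of each line did not. Its differences ran from -1.57 to -0.94 over all 16 alternatives computed for it. The cause of these changes was not tested. The number of arrays, 2 per line, limits the precision: the 95% interval was narrowest for Ldha, at 0.685-fold to 1.04-fold, and widest for Pfkl, at 0.687-fold to 1.86-fold.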

Other observations

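Among 11 tested genes of branches from glycolysis 2 were higher at an unadjusted p under 0.05 and 0 lower, with a median of -0.12 and Gpd1l at -0.58. Me1, the cytosolic malic enzyme that supplies NADPH for lipid synthesis, read 10.19 and 9.20 in InvCREER, against 7.72 and 7.88 in K14CREER (difference 1.90, SE 0.35, limma adjusted p = 0.0679), and Psph, the last enzyme of serine synthesis, read 10.98 and 10.31 in InvCREER, against 9.37 and 9.80 in K14CREER (difference 1.06, SE 0.28, limma adjusted p = 0.147). Of the 7 tested pentose phosphate genes 2 were higher at an unadjusted p under 0.05, Pgd at 0.69 and Taldo1 at 0.52 (limma adjusted p = 0.205 and 0.246), with H6pd at -0.48 and a list median of 0.30. Pcx, pyruvate carboxylase, was at 0.94 (limma adjusted p = 0.302), against a median of 0.00 over 16 tested tricarboxylic acid cycle genes, with Idh3a at -0.54 and Sdhd at -0.34. Me1, Pgd and Pcx were highest on InvCREER 1, the array with the highest sebaceous gland and Langerhans cell and myeloid markers, whose part was not tested. Of 8 tested glycogen genes 7 had lower means in InvCREER, with Gbe1, the branching enzyme, at -0.88, Pygl, a glycogen phosphorylase, at -0.65 and Pgm1 at -0.44 (limma adjusted p = 0.412, 0.302 and 0.464), and 0 were called.

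Gapdh, the glycolytic step between Tpi1 and Pgk1, was read through the array's control probe sets, chosen after their values were seen and outside the tested set. Its 3' probe set read 12.37 and 12.38 in InvCREER, against 12.61 and 12.56 in K14CREER, and its 5' probe set 11.63 and 12.33 in InvCREER, against 12.27 and 12.48 in K14CREER. The 3' reading was lower on both InvCREER arrays, by a difference of -0.21. The 3' minus 5' value, a sign of RNA quality, was 0.74 on InvCREER 1 and 0.05 on InvCREER 2, against 0.33 and 0.07 in K14CREER. InvCREER 1, the lowest array for Tpi1, Pgk1 and Ldha, thus had the largest such value, and its part in their readings was not tested.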
